A study of Mus musculus with 15 samples.

Results

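Cultured mouse retinal pigment epithelium (mRPE) cells of the Prom1 knockout line 22 (KO22) were compared with the wild-type (WT) mRPE line by bulk RNA-seq. The comparison takes in 7 of the 15 libraries of the study, 4 of WT and 3 of KO22, picked by the cell line and genotype in their labels. The library names begin with 1 of 2 numbers, 8995 or 9262, here called library series and treated as the batch. Series 8995 holds 1 WT and 1 KO22 library, and series 9262 holds 3 WT and 2 KO22 libraries. Both lines go back to pooled RPE cells of adult C57/BL6J mice, immortalised with a lentivirus carrying HPV E6/E7. For the knockout, cells made to express Cas9 from a lentivirus and selected in puromycin were transfected with a synthetic guide RNA against exon 5 of Prom1. The sources used here do not say whether the WT libraries come from cells with Cas9 or a scrambled guide. KO22 is 1 line from 1 editing experiment, so an effect of losing Prom1 and a property of this line cannot be told apart here. Nothing says that the libraries of a line came from separate cultures, and p-values measure only the spread between these libraries. A second knockout line, KO26, was used only for side-by-side values.

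The RPE is the pigmented monolayer behind the photoreceptors, where it engulfs shed outer segments, recycles retinoids for vision, carries solutes and hormones between the choroid and the retina, and lays down a basement membrane rich in laminin, type IV collagen and heparan sulfate proteoglycans. Prom1 encodes prominin-1, a multi-pass membrane glycoprotein of plasma membrane protrusions. It is known as a stem cell marker and has a part in building photoreceptor discs. Counts of Prom1 in these cells are not analysed here.

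Values are given as CPM, a gene's counts as a share of its library's total in parts per 1000000, after TMM scaling over the 7 libraries. Wherever single libraries are listed, the library of series 8995 comes first and those of series 9262 follow. Log2 fold changes are KO22 minus WT with their standard error, from edgeR's quasi-likelihood test with library series as a term and Benjamini-Hochberg adjustment over all 20455 genes tested. A gene is called higher or lower, or said to have risen or fallen, only where adjusted p was under 0.05 and the log2 fold change was beyond 1.2 in either direction. Values of KO26 (1 library of each series) are CPM of a fit over 9 libraries, and differences from KO26 come from that fit and use the same KO22 libraries. Over the 20737 genes tested in it, KO22 was higher than KO26 for 7.56% and lower for 10.7%. Whether the counting used strand is not stated, so reads of overlapping or antisense genes cannot be told apart.

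The guide is shown first because its sequence sets the intended target in KO22. It is printed 5′ to 3′ with its PAM, the motif Cas9 needs beside its target, in capitals. Over the GRCm39 genome it had 1 exact match followed by NGG, at chr5:44213310-44213329 on the minus strand, inside the coding exon 5 of Prom1 (chr5:44213220-44213425 in the canonical transcript). No site had 1 or 2 mismatches, and 2 sites had 3, while sites with more mismatches, with bulges or beside another PAM were not searched for. The mismatched bases of these sites are in capitals, and positions are counted from 1 at the guide's 5′ end.
Guide with PAM: cgttgctgcaacaaatgcggCGG
Chromosome X site: cCtGgctgcaacaaatgcgC
Chromosome 6 site: cCttgctTcaacaaatgAgg
The chromosome X site, at chrX:51163225-51163244 on the plus strand, is followed by GGG, differs from the guide by G2C, T4G and G20C, and lies in a coding exon (chrX:51163171-51163562) of Gpc4, a glypican. The chromosome 6 site, at chr6:84357394-84357413 on the plus strand, is followed by TGG, differs by G2C, G8T and C18A, and is intergenic.

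Gpc4, which anchors heparan sulfate chains to the cell surface, was at 153, 102, 118 and 111 CPM in WT against 19.09, 25.01 and 21.4 CPM in KO22. Every KO22 library was below every WT library (log2 fold change -2.46 ± 0.17, adjusted p = 4.6e-06), while KO26 had 152 and 113 CPM, and KO22 lay -2.55 on the log2 scale from KO26 (adjusted p = 8.7e-06). Its neighbour Gpc3, another glypican, 198 kb from the site, was at 4.32, 6.28, 7.91 and 5.42 CPM in WT against 0.0872, 0.145 and 0.156 CPM in KO22, with every KO22 library at 3 counts or fewer, at least 28.01-fold lower against the floor of 3 counts per library. In KO26, Gpc3 had 4.87 and 6.59 CPM. Of the 12 genes tested within 1 Mb on each side of the chromosome X site, 1 was higher and 5 were lower. Over all genes tested, 11.4% were called higher and 13.8% lower. Those lower near the site included Hs6st2, a heparan sulfate 6-O-sulfotransferase (log2 fold change -1.30 ± 0.26), and Mbnl3, a splicing regulator (-2.55 ± 0.63). Whether the site in Gpc4 was cut was not tested, and these libraries hold no measure of it.

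Around the exact match, 21 genes were tested within 1 Mb on each side of Prom1, of which 1 was higher and 11 were lower (background over all genes tested, 11.4% called higher and 13.8% lower). Of the 8 protein-coding genes among them, 5 fell. Tapt1, the nearest abundant neighbour, was at 79.1, 62.8, 60.4 and 60.1 CPM in WT against 66.9, 57.7 and 52.8 CPM in KO22, and the groups overlapped (log2 fold change -0.17 ± 0.10, not called). Fbxl5, a ubiquitin ligase subunit that senses iron, was at 142, 162, 157 and 141 CPM in WT against 133, 115 and 107 CPM in KO22 (log2 fold change -0.35 ± 0.12, not called). The adjacent paralogs Bst1 and Cd38, ectoenzymes that use NAD, fell: Bst1 was at 6.24, 7.803, 8.701 and 9.47 CPM in WT against 0.0872, 0.0969 and 0.234 CPM in KO22, at least 37.7-fold lower, and Cd38 at 5.64, 5.32, 4.45 and 3.54 CPM in WT against 0.349, 1.07 and 0.468 CPM in KO22. Further out, Cpeb2, which binds polyadenylation elements in mRNA, was at 75.8, 60.6, 53.2 and 45.8 CPM in WT against 13.9, 5.48 and 5.38 CPM in KO22 (log2 fold change -3.02 ± 0.20, adjusted p = 3.7e-06). KO26 lay between the 2 lines for Cpeb2, at 18.2 and 24.5 CPM. Abundant genes near the target thus included both called and uncalled ones. Within 1 Mb of the chromosome 6 site, 1 of 30 genes tested was higher and 8 were lower. The largest difference there was that of Cyp26b1, 191 kb away, which breaks down retinoic acid, at 6.2002, 10.5, 16.9 and 22.8 CPM in WT against 0.436, 0.63002 and 0.7802 CPM in KO22 (log2 fold change -4.42 ± 0.37, adjusted p = 1.4e-05).

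**Figure D1:**
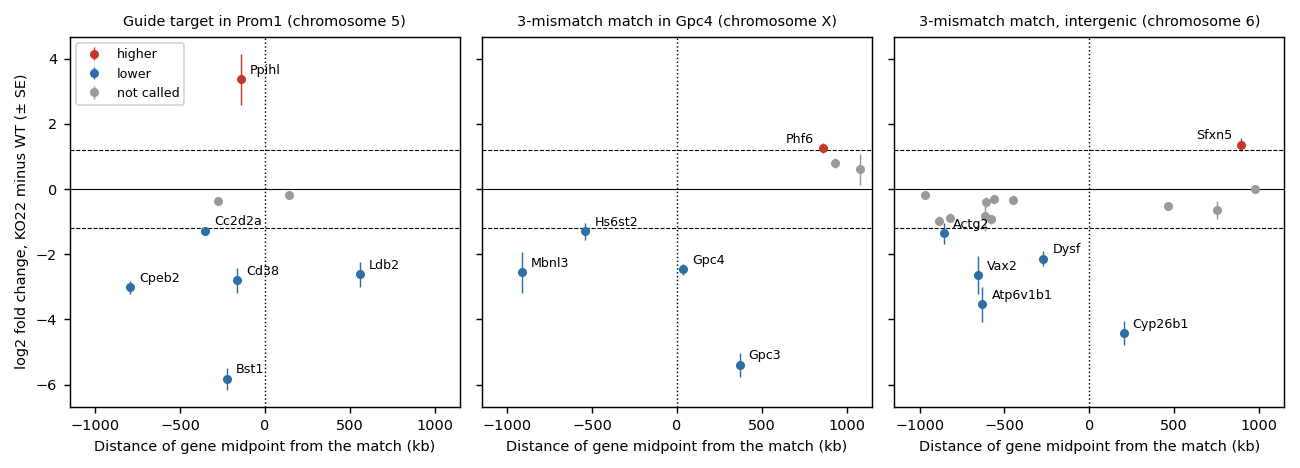
Log2 fold change (KO22 minus WT, ± SE) of protein-coding genes against the distance of their midpoint from each guide match in kb, for the target in Prom1, the 3-mismatch match in Gpc4 and the intergenic 3-mismatch match, with dashed lines at the limits of 1.2 and -1.2. Red points were called higher, blue lower and grey neither. In each window 1 protein-coding gene rose while 4 or 5 fell, of 8, 7 and 17 tested. Of all protein-coding genes tested, 13.1% were higher and 11.9% lower.

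Markers of cell types were read next, as a check on the label. Of 21 RPE markers, 7 were listed in the table. Serpinf1, which encodes the secreted factor PEDF, was the highest at 612, 603, 705 and 688 CPM in WT against 459, 438 and 381 CPM in KO22, lower in every KO22 library but short of the limit on fold change (log2 fold change -0.62 ± 0.13). Mitf, the transcription factor of pigment cells, was at 3.04, 6.21, 6.82 and 6.07 CPM in WT against 20.3, 12.6 and 10.5 CPM in KO22 (log2 fold change 1.41 ± 0.33, adjusted p = 0.0055), and without series 8995 its log2 fold change was 0.88 and it was not called. Stra6, the receptor that takes up retinol from its plasma carrier, rose from 5.2002, 2.83, 1.09 and 1.95 CPM to 16.3, 11.5 and 7.41 CPM (log2 fold change 2.04 ± 0.29). Kcnj13, Pmel, Rdh5 and Best1 were not called and lay between 1.22 and 17.5 CPM in all 7 libraries. The other 14 RPE markers were not analysed here. Serpinf1 was thus the 1 abundant RPE marker among the 7 read.

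Among the markers read, those of mesenchymal cells were far more abundant than those of the RPE. RPE markers that were not analysed do not enter this comparison. Of 9 markers of fibroblasts and mural cells tested, 1 rose and 6 fell (11.1% and 66.7%, beside 11.4% and 13.8% of all genes tested). Their summed level went from 12023 to 16000 CPM in WT to between 4439 and 6341 CPM in KO22. Acta2, smooth muscle actin, was at 1664, 646, 593 and 647 CPM in WT against 235, 153 and 148 CPM in KO22 (log2 fold change -2.28 ± 0.17, adjusted p = 6.4e-06). Pdgfra, a receptor for platelet-derived growth factor, was at 1149, 1478, 1583 and 1507 CPM in WT against 416, 573 and 482 CPM in KO22 (log2 fold change -1.51 ± 0.12). Cspg4, the NG2 proteoglycan of pericytes, went the other way, at 6.6002, 5.87, 6.03 and 6.94 CPM in WT against 18.7, 25.2 and 25.6 CPM in KO22 (log2 fold change 1.86 ± 0.16). Kdr, the VEGF receptor that marks endothelium, was at 236, 161, 152 and 163 CPM in WT against 0.349, 3.73 and 2.57 CPM in KO22 (log2 fold change -6.22 ± 0.47, adjusted p = 8.7e-06), with KO26 at 72.3 and 55.3 CPM. The other 5 endothelial markers listed, Pecam1, Tek, Egfl7, Vwf and Plvap, were at 2.53 CPM or less in all 7 libraries, of which Tek fell and Plvap rose. The macrophage markers listed, Cd68 and Csf1r, were between 3.61 and 9.42 CPM and were not called. In bulk samples fewer cells of a type and less RNA per cell cannot be told apart.

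Total counts ran from 10187978 to 27537863 per library. The 2338 genes called higher took 4.20% to 4.63% of all counts in WT and 13.7% to 14.8% in KO22, and the 2816 called lower took 10.9% to 14.2% in WT and 2.65% to 3.25% in KO22. Mitochondrially encoded genes took 17.6% to 21.6% of counts in WT and 14.03% to 16.3% in KO22. Of the calls, 45.4% were in the higher direction, and under upper-quartile scaling, which shifted the median of all log2 fold changes by -0.18, 35.2% were. Calls leaned lower among weakly expressed and non-coding genes. Of 13468 protein-coding genes tested, 13.1% were higher and 11.9% lower, against 8.52% and 19.3% of 3297 long non-coding RNA genes. Genes under 1 CPM were lower in 20.3% of cases and those over 100 CPM in 7.52%. Of the 2338 genes called higher, 1960 could be tested in series 9262 alone and 1809 were called there. Between the single libraries of series 8995, 2308 of the 2338 differed in the same direction and 1269 were past the limit on fold change. That difference was taken on log2(CPM + 0.5), which shrinks it for weakly expressed genes. For the 2816 called lower, 2676 could be tested in series 9262 alone and 2415 were called there. In series 8995, 2773 of them differed in the same direction and 1636 were past the limit. Both series entered the calls, so these counts are a description.

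The 10 most abundant genes called lower, leaving out genes that the study itself discusses, included genes of the extracellular matrix. Fn1, fibronectin, was at 8062, 10724, 10967 and 10186 CPM in WT against 3246, 1799 and 1825 CPM in KO22 (log2 fold change -2.19 ± 0.25). Col1a2, a chain of type I collagen, was at 7003, 5336, 6149.6 and 5168 CPM in WT against 1916, 1909 and 1538 CPM in KO22 (log2 fold change -1.74 ± 0.15). Lox, which crosslinks collagen and elastin, was at 6038, 5238, 5949.8 and 5446 CPM in WT against 3650.2, 1187 and 1233 CPM in KO22, the KO22 library of series 8995 standing well above the other 2 (log2 fold change -1.77 ± 0.28). Efemp1, the fibulin-3 of drusen in inherited macular disease, was at 1467, 1453, 1591 and 1326 CPM in WT against 212, 345 and 299 CPM in KO22 (log2 fold change -2.36 ± 0.16). Fbn1, the fibrillin of microfibrils, was at 1333, 1146, 1340.1 and 1114 CPM in WT against 302, 349 and 312 CPM in KO22 (log2 fold change -1.94 ± 0.13). KO26 did not share these levels for Fn1 (7794 and 12617 CPM), Col1a2 (7895 and 8719 CPM) or Fbn1 (1221 and 1275 CPM), and KO22 was lower than KO26 for all 3 (log2 differences -2.16, -2.21 and -1.97, adjusted p = 3.9e-04, 1.5e-05 and 1.0e-05 in edgeR's test). Malat1, a nuclear long non-coding RNA, was at 6360, 6592, 6002 and 7153 CPM in WT against 2996, 2167 and 2269 CPM in KO22 (log2 fold change -1.43 ± 0.16).

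The 10 most abundant genes called higher, chosen in the same way, included both matrix and cell division genes. Vcan, the large proteoglycan versican, was at 648, 616, 592 and 536 CPM in WT against 2554, 3272 and 3018 CPM in KO22, every KO22 library far above every WT library (log2 fold change 2.302 ± 0.14, adjusted p = 2.3e-06). Spp1, osteopontin, was at 844, 1419, 1884 and 1588 CPM in WT against 3796, 3569 and 4396 CPM in KO22 (log2 fold change 1.55 ± 0.20). Capza2, which caps actin filaments, was at 164, 136, 121 and 127 CPM in WT against 852, 1375 and 1231 CPM in KO22 (log2 fold change 3.07 ± 0.19, adjusted p = 2.5e-06), with KO26 at 107 and 161 CPM. Hsp90ab1 and Hsp90aa1, the cytosolic HSP90 chaperones, were at 1689, 1128, 1204 and 1114 CPM in WT against 2489, 3289 and 3291 CPM in KO22 and at 687, 501, 628 and 523 CPM in WT against 1135, 1717 and 1734 CPM in KO22, respectively. The Hsp90ab1 call sat close to the limit (log2 fold change 1.24 ± 0.18) and was lost under upper-quartile scaling (1.06) and without any of 4 single libraries (1.10 to 1.18). Top2a, the topoisomerase of dividing cells, was at 385, 341, 344 and 332 CPM in WT against 822, 1404 and 1264 CPM in KO22 (log2 fold change 1.72 ± 0.17), and Mki67, the proliferation marker Ki-67, at 378, 319, 308 and 289 CPM in WT against 770.3, 1199 and 1175 CPM in KO22 (log2 fold change 1.69 ± 0.17). KO26 had 712 and 792 CPM of Top2a and 764 and 607 CPM of Mki67, and KO22 did not pass the test against KO26 for either (log2 differences 0.57 and 0.61, adjusted p = 0.052 and 0.061 in edgeR's test).

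Some genes were near 0 in 1 of the lines. In every WT library 260 listed genes had 3 counts or fewer while KO22 did not, 201 of them called higher, and 626 had 3 or fewer in every KO22 library but not in WT, 434 of them called lower. F5, coagulation factor V, was at 0.080003, 0, 0.198 and 0 CPM in WT against 760.2, 206 and 252 CPM in KO22, at least 1933-fold higher against the floor of 3 counts per library. F5 in KO22 was thus among the better expressed genes of the line and was near 0 in WT, and KO26 had 0.325 and 0.116 CPM. Selp, P-selectin, the adhesion molecule of platelets and endothelium, had 0 counts in WT and 23.4, 9.21 and 14.04 CPM in KO22. Acan, the cartilage proteoglycan aggrecan, was at 0.040001, 0, 0 and 0 CPM in WT against 29.5, 16.3 and 19.8 CPM in KO22, and Xylt1, which starts glycosaminoglycan chains on such core proteins, at 0, 0, 0 and 0 CPM in WT against 19.6, 12.1 and 10.1 CPM in KO22. Inpp4b, a phosphoinositide phosphatase, was at 0.080003, 0.0691, 0.297 and 0.145 CPM in WT against 7.498, 29.8 and 23.5 CPM in KO22, and Tlr7, a receptor for single-stranded RNA, at 0.040001, 0, 0 and 0.145 CPM in WT against 8.195, 8.04 and 6.94 CPM in KO22. Palmd and Tmprss11f completed the 8 genes with the highest KO22 level, at 17.8, 10.5 and 10.9 CPM and 20.9, 8.58 and 8.11 CPM. KO26 had 0.51 CPM or less of all 8.

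In the other direction, Pgr, the progesterone receptor, was at 78.1, 36.6, 41.2 and 39.98 CPM in WT against 0.262, 0.0969 and 0.156 CPM in KO22, at least 229-fold lower, and Pamr1 at 17.2, 43.4, 51.9 and 49.4 CPM in WT against 0.174, 0.0969 and 0.07802 CPM in KO22, at least 189-fold lower. KO26 was low for both too, at 3.62 and 10.5 CPM and 1.39 and 4.51 CPM, and KO22 still lay below it (log2 differences -5.34 and -4.86, adjusted p = 2.8e-04 and 2.3e-05 in edgeR's test). Adh1, an alcohol dehydrogenase that oxidises retinol, was at 32.5, 22.7, 27.9 and 19.01 CPM in WT against 0, 0.0969 and 0 CPM in KO22, at least 119-fold lower. Megf6 and Scube1, secreted proteins with EGF-like repeats, were at 12.8, 29.8, 29.6 and 34.8 CPM in WT against 0.0872, 0.145 and 0.07802 CPM in KO22 and at 8.4003, 7.18, 6.92 and 5.42 CPM in WT against 0, 0.0485 and 0.07802 CPM in KO22. For Megf6 and Scube1, KO26 was above WT, with 46.9 and 43.02 CPM and 19.5 and 22.4 CPM.

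**Figure D2:**
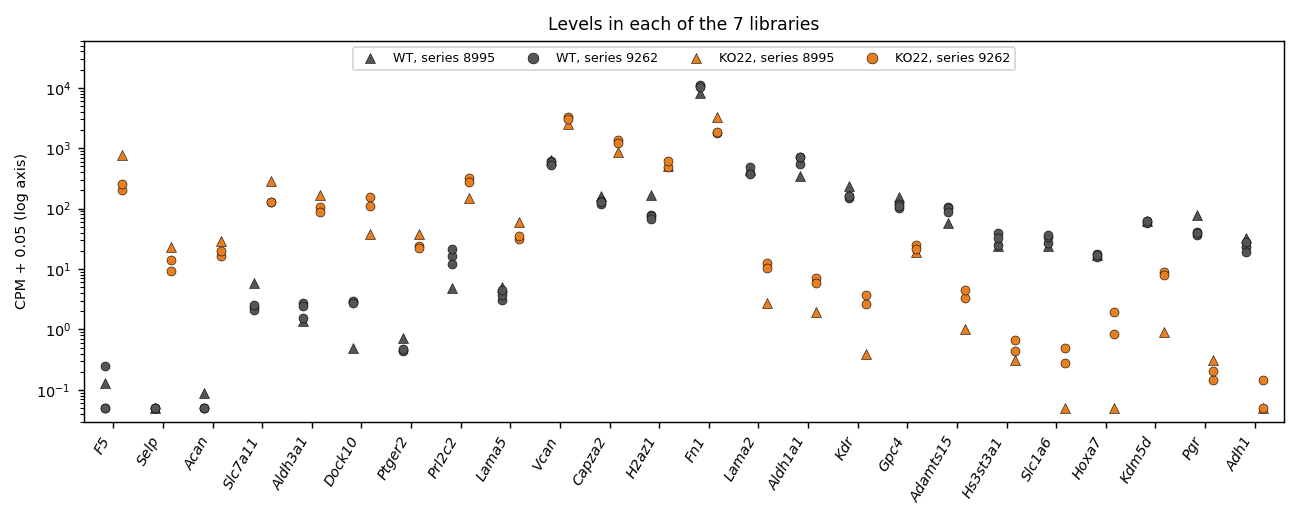
Level of 24 named genes in each of the 7 libraries, as CPM + 0.05 on a log axis, with WT in grey and KO22 in orange, triangles for series 8995 and circles for series 9262. From F5 to H2az1 the KO22 points lie above the WT points, and from Fn1 to Adh1 below them, with no overlap for any gene shown (over all genes tested KO22 lay wholly above WT for 24.8% and wholly below for 25.3%).

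Basement membrane genes were called in both directions. Of 22 laminins, nidogens and type IV collagens tested, 4 rose and 4 fell (18.2% each way, beside 11.4% and 13.8% of all genes tested), and the summed level was 3858 ± 211 CPM (SD, n = 4) in WT and 3671 ± 474 CPM (SD, n = 3) in KO22. Lama2, the laminin chain of muscle and mesenchyme, was at 432, 383, 479 and 381 CPM in WT against 2.703, 12.6 and 10.4 CPM in KO22 (log2 fold change -5.66 ± 0.39, adjusted p = 4.6e-06). Nid2, a nidogen that links laminin to collagen, was at 271, 206, 195 and 171 CPM in WT against 7.85, 15.1 and 9.99 CPM in KO22 (log2 fold change -4.24 ± 0.26). Lama5, the laminin chain typical of mature epithelial basement membranes, was at 4.92, 3.04, 3.66 and 4.48 CPM in WT against 59.5, 31.7 and 35.3 CPM in KO22 (log2 fold change 3.305 ± 0.17, adjusted p = 9.9e-07). Lama5 was near its WT level in KO26, at 2.09 and 4.28 CPM. The family's sum differed between the lines by less than its spread.

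Genes of heparan sulfate, the sulfated sugar that binds growth factors at the cell surface, were also called in both directions. Of 26 tested, 6 rose and 8 fell (23.1% and 30.8%, beside 11.4% and 13.8% of all genes tested). Besides the glypicans Gpc4 and Gpc3, the neighbouring sulfotransferase genes Hs3st3a1 and Hs3st3b1, which add 3-O-sulfate, fell, the first to 0.262, 0.63002 and 0.3901 CPM from 24.001, 25.4, 39.5 and 32.7 CPM (log2 fold change -6.02 ± 0.28) and the second to 2.09, 1.502 and 0.858 CPM from 23.7, 11.8, 19.3 and 16.2 CPM (log2 fold change -3.61 ± 0.26). Hpse, the heparanase that cuts the chains, was at 6.84, 14.98, 9.69 and 11.8 CPM in WT against 113, 71.2 and 57.7 CPM in KO22 (log2 fold change 2.88 ± 0.30), and Sdc3, a syndecan, at 6.28, 6.97, 6.82 and 8.67 CPM in WT against 39.3, 49.4 and 41.5 CPM in KO22 (log2 fold change 2.61 ± 0.14). Ndst3, an N-sulfotransferase, was at 1, 2.21, 1.38 and 1.73 CPM in WT against 10.98, 20.2 and 22.2 CPM in KO22 (log2 fold change 3.52 ± 0.19).

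ADAMTS proteases, which trim proteoglycans and procollagens, and the ADAMTS-like proteins leaned one way. Of 17 tested, 9 fell and 1 rose (52.9% and 5.9%, beside 13.8% and 11.4% of all genes tested). The median log2 fold change was -1.31 beside -0.03 over all genes tested, and the summed level was 1247 ± 82 CPM in WT and 404 ± 29 CPM in KO22. Adamts15 was at 57.7, 105, 101 and 88.8 CPM in WT against 0.959, 3.296 and 4.45 CPM in KO22 (log2 fold change -4.91 ± 0.23), Adamtsl1 at 30.8, 65.5, 84.2 and 90.9 CPM in WT against 0.872, 1.84 and 1.25 CPM in KO22 (log2 fold change -5.55 ± 0.22) and Adamts9 at 86.1, 257, 285 and 303 CPM in WT against 24.7, 49.1 and 40.6 CPM in KO22 (log2 fold change -2.41 ± 0.19). The WT library of series 8995 was the lowest of WT for all 3, still above every KO22 library. Adamts7 was the exception, at 2.16, 3.798, 6.13 and 4.41 CPM in WT against 15.7, 19.3 and 16.2 CPM in KO22 (log2 fold change 2.18 ± 0.24). Among skeletal and cartilage genes 5 of 16 rose and 5 fell (31.2% each way). Col11a1, a fibrillar collagen of cartilage, was at 631, 328, 385 and 298 CPM in WT against 27.4, 33.1 and 25.98 CPM in KO22 (log2 fold change -3.797 ± 0.23), and Mgp, the matrix Gla protein that keeps matrix from calcifying, at 534, 315, 448 and 368 CPM in WT against 53.97, 66.6 and 61.8 CPM in KO22 (log2 fold change -2.77 ± 0.19). Acan and Spp1, given above, were among those that rose. Sox9, a transcription factor of cartilage that was counted with the Sox genes and not in this list, was at 13.8, 16.2, 16.3 and 13.9 CPM in WT against 112, 63.8 and 78.02 CPM in KO22 (log2 fold change 2.45 ± 0.18).

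Guidance cues, secreted and membrane proteins first known for steering axons, differed widely. Of 27 semaphorins, plexins and neuropilins tested, 12 rose and 9 fell (44.4% and 33.3%, beside 11.4% and 13.8% of all genes tested). Under upper-quartile scaling 8 rose and 10 fell. Sema5a was at 0.96003, 1.105, 1.38 and 1.73 CPM in WT against 43.8, 29.9 and 28.4 CPM in KO22 (log2 fold change 4.72 ± 0.25, adjusted p = 1.1e-06), Sema3c at 11.6, 11.3, 15.3 and 11.1 CPM in WT against 56.2, 44.8 and 47.7 CPM in KO22 (log2 fold change 2.003 ± 0.15), and the receptor Plxnb1 at 4.96, 5.32, 6.23 and 7.301 CPM in WT against 19.8, 27.4 and 23.02 CPM in KO22 (log2 fold change 2.002 ± 0.16). In the other direction Sema3d was at 78.8, 52.3, 66.05 and 54 CPM in WT against 0.6103, 3.102 and 2.42 CPM in KO22 (log2 fold change -4.86 ± 0.37) and the receptor Plxnc1 at 71.2, 44.5, 50.1 and 48.5 CPM in WT against 1.31, 3.88 and 4.53 CPM in KO22 (log2 fold change -4.01 ± 0.35). Sema5a was lower in KO26 than in any other library, at 0.186 and 0.116 CPM. Of 14 genes of the Slit, Robo and netrin families 7 fell and 2 rose (50.0% and 14.3%). The receptor Robo2 was at 11.6, 13.3, 16.1 and 9.398 CPM in WT against 0.523, 1.599 and 0.546 CPM in KO22 (log2 fold change -3.69 ± 0.37) and Flrt2 at 226, 137, 176 and 135 CPM in WT against 31.6, 41.5 and 43.9 CPM in KO22 (log2 fold change -2.099 ± 0.21), while netrin-1 (Ntn1) was at 4.48, 6.77, 8.602 and 7.74 CPM in WT against 12.5, 26.1 and 21.9 CPM in KO22 (log2 fold change 1.597 ± 0.15). Slit3 passed the test, but its KO22 library of series 8995 was as high as WT, at 26.4, 41.9, 39.3 and 37.7 CPM in WT against 34.3, 6.64 and 6.48 CPM in KO22. Of 17 ephrins and Eph receptors 4 fell and 2 rose (23.5% and 11.8%), the share that rose being near that of all genes tested. Epha4 was at 48.1, 29.7, 29.8 and 26.96 CPM in WT against 1.48, 2.62 and 1.09 CPM in KO22 (log2 fold change -4.18 ± 0.30).

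Cell contact genes included the clustered protocadherins, adhesion molecules expressed in combinations by neurons. Of 44 protocadherins tested 14 fell and 1 rose (31.8% and 2.3%, beside 13.8% and 11.4% of all genes tested, median log2 fold change -0.90). Pcdhb16, Pcdhb19 and Pcdhb20 fell by 2.09, 2.27 and 2.12 on the log2 scale, Pcdhb16 from 53.2, 55.1, 62.3 and 60.9 CPM to 11.2, 14.4 and 14.7 CPM. Members of this cluster are similar in sequence, and reads shared between them make single-gene values less certain. Of 8 connexins and pannexins, the channels between and out of cells, 3 rose (37.5%) and none fell. Gja1, connexin 43, was at 35.8, 12.4, 14.4 and 10.2 CPM in WT against 72.4, 59.5 and 59.5 CPM in KO22 (log2 fold change 1.89 ± 0.23), and Panx1, a channel that releases ATP, at 3.68, 2.69, 2.37 and 4.12 CPM in WT against 12.9, 13.3 and 15.3 CPM in KO22 (log2 fold change 2.08 ± 0.22).

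Genes of extracellular purine and prostaglandin signalling were called higher at several steps. Of 15 purine receptors and ectonucleotidases tested, 7 rose and 2 fell (46.7% and 13.3%, beside 11.4% and 13.8% of all genes tested). Nt5e, the CD73 enzyme that makes adenosine from AMP, was at 4.8002, 7.18, 6.82 and 8.75 CPM in WT against 76.2, 86.6 and 78.2 CPM in KO22 (log2 fold change 3.598 ± 0.15, adjusted p = 4.7e-07). Enpp2, autotaxin, which makes lysophosphatidic acid, was at 18.9, 37.2, 36.1 and 25.95 CPM in WT against 616, 215 and 195 CPM in KO22, the library of series 8995 far above the other 2 (log2 fold change 3.32 ± 0.41). P2rx7, the ATP-gated channel, was at 1.04, 2.35, 3.46 and 1.59 CPM in WT against 18.5, 11.9 and 13.1 CPM in KO22 (log2 fold change 2.87 ± 0.36). Of 17 genes of prostaglandin synthesis and response, 6 rose and 1 fell (35.3% and 5.9%). The receptors Ptger2 and Ptgfr were at 0.68002, 0.414, 0.396 and 0.434 CPM in WT against 38.4, 23.7 and 22.1 CPM in KO22 (log2 fold change 5.77 ± 0.18) and at 4.24, 3.45, 3.07 and 3.25 CPM in WT against 43.7, 43.1 and 38.5 CPM in KO22 (log2 fold change 3.55 ± 0.14). Slco2a1, the prostaglandin importer, was at 4.08, 6.97, 8.31 and 7.59 CPM in WT against 84.2, 101 and 89.02 CPM in KO22 (log2 fold change 3.86 ± 0.16). Ptgis, prostacyclin synthase, was the member that fell, at 85.4, 80.1, 88.4 and 86.2 CPM in WT against 9.59, 14.9 and 13.8 CPM in KO22 (log2 fold change -2.73 ± 0.15, adjusted p = 1.2e-06). KO26 was near WT for Ptger2 (0.371 and 1.16 CPM), Ptgfr (4.36 and 2.78 CPM) and Ptgis (90.4 and 91.1 CPM).

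Growth factors and hormones followed no single direction. Of 10 neurotrophins and receptors, 5 rose and 2 fell (50.0% and 20.0%, beside 11.4% and 13.8% of all genes tested). Gfra2, a receptor for neurturin, was at 105, 102, 106 and 111 CPM in WT against 644, 458 and 389 CPM in KO22 (log2 fold change 2.18 ± 0.14), and Gdnf at 1.52, 5.66, 5.34 and 4.27 CPM in WT against 11.3, 20.8 and 16.7 CPM in KO22 (log2 fold change 2.15 ± 0.23). Ntrk3, the receptor of neurotrophin-3, was at 36.8, 103, 78.01 and 94.2 CPM in WT against 50.8, 17.9 and 19.8 CPM in KO22 and lost its call without either KO22 library of series 9262 (-1.06 and -1.16). Among 13 hormones, Stc1, stanniocalcin, was at 15.5, 18.2, 13.5 and 15.2 CPM in WT against 133, 83.5 and 63.1 CPM in KO22 (log2 fold change 2.49 ± 0.20), Edn1, endothelin-1, at 18.3, 23.3, 36.1 and 38.2 CPM in WT against 0.174, 0.824 and 1.09 CPM in KO22 (log2 fold change -5.32 ± 0.31), and Inhbb, the activin B subunit, at 23.8, 28.9, 20.5 and 34.6 CPM in WT against 2.09, 2.91 and 2.34 CPM in KO22 (log2 fold change -3.43 ± 0.23). Of 21 dual-specificity phosphatases, Sprouty and related genes, many of which are induced by and damp ERK signalling, 9 rose and 1 fell (42.9% and 4.8%, median 1.02), and without the last KO22 library of series 9262 4 rose. Dusp4 was at 4.48, 3.66, 4.35 and 4.12 CPM in WT against 46.3, 29.9 and 32.2 CPM in KO22 (log2 fold change 3.08 ± 0.15, adjusted p = 8.5e-07) and Spry4 at 3.44, 1.93, 1.98 and 1.52 CPM in WT against 28.3, 11.4 and 14.7 CPM in KO22 (log2 fold change 2.91 ± 0.19). Spry2 was the member that fell, at 48.3, 26.8, 27.9 and 28.1 CPM in WT against 8.63, 10.8 and 13.97 CPM in KO22 (log2 fold change -1.53 ± 0.24). The Spry2 call was lost in series 9262 alone (-1.165). Of 23 YAP and TEAD target genes 7 fell and 2 rose (30.4% and 8.7%, median -0.56). Ccn2, connective tissue growth factor, was at 177, 116, 171 and 171 CPM in WT against 54.9, 30.8 and 46.9 CPM in KO22 (log2 fold change -1.89 ± 0.20), and F3, tissue factor, which starts coagulation, at 176, 177, 178 and 219 CPM in WT against 16.2, 35.5 and 26.5 CPM in KO22 (log2 fold change -2.85 ± 0.20), in the same line in which F5 was high. Prl2c2, a placental prolactin also called proliferin, was at 4.88, 16.5, 11.9 and 21.7 CPM in WT against 150.4, 321 and 271 CPM in KO22 (log2 fold change 4.36 ± 0.23), and its near-identical paralogs Prl2c3 and Prl2c5 rose with it, so that the split of reads between the 3 is uncertain.

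**Figure D3:**
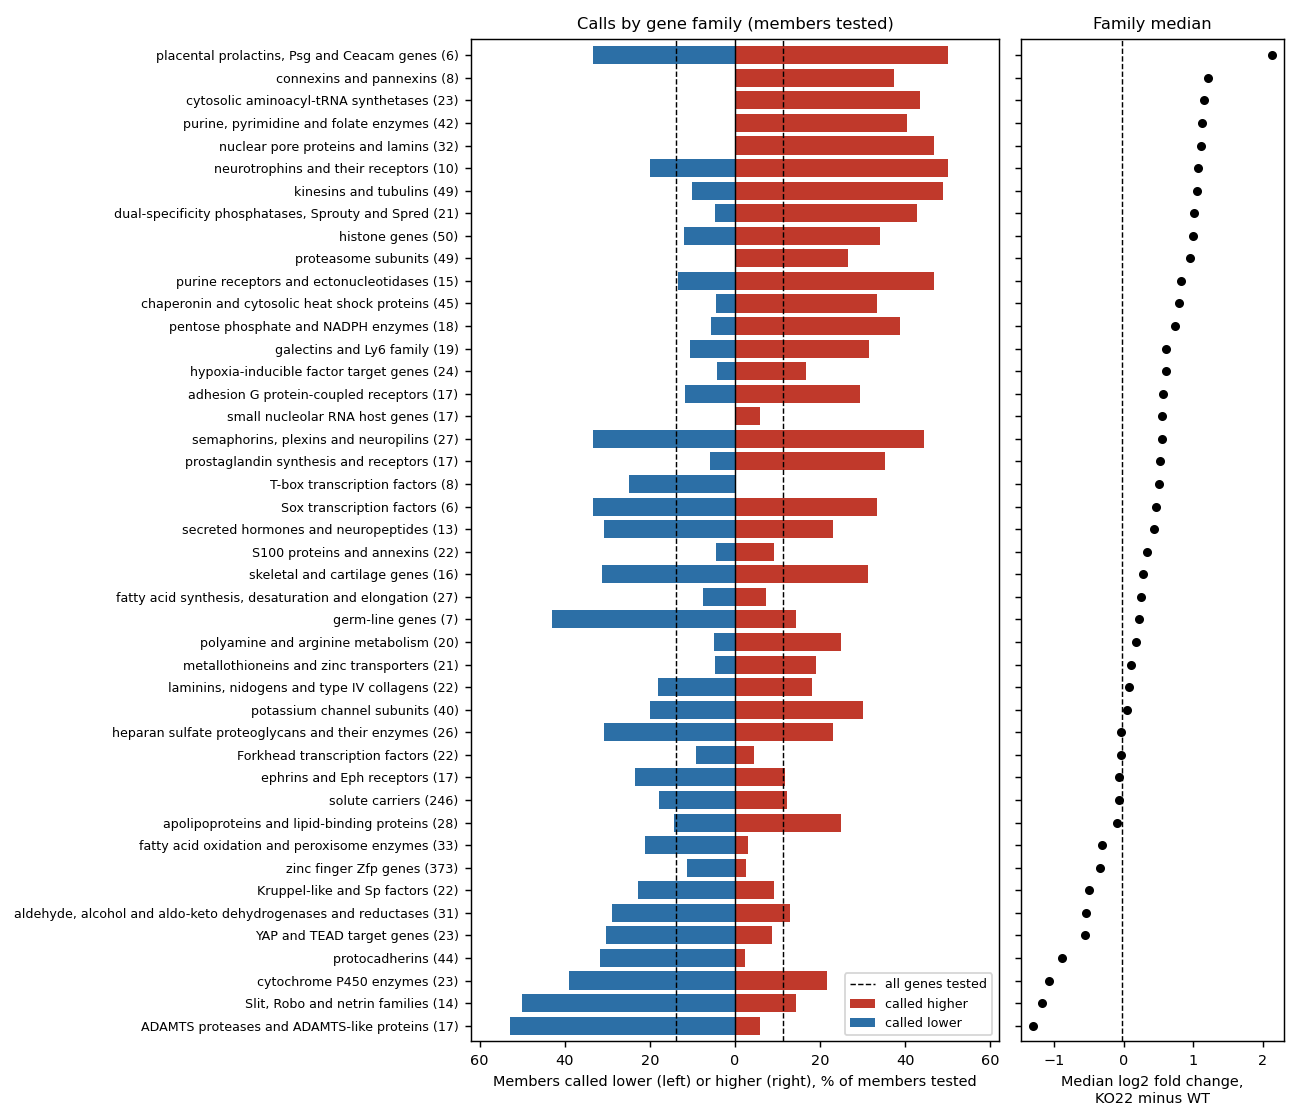
Share of the members tested of each gene family that was called higher (red, right) or lower (blue, left) in KO22, in percent, with dashed lines at the shares of all genes tested (11.4% and 13.8%), and at right each family's median log2 fold change beside that of all genes. Families are in the order of their median, with placental prolactins and connexins at the top, tRNA synthetases, purine, pyrimidine and folate enzymes and nuclear pore proteins next with no lower calls, and ADAMTS, Slit and Robo, P450 and protocadherin genes at the bottom.

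Of 246 solute carriers, the transporters of small molecules, 30 rose and 44 fell (12.2% and 17.9%, near the 11.4% and 13.8% of all genes tested). Slc7a11, which imports cystine for glutathione, was at 5.8002, 2.35, 2.08 and 2.53 CPM in WT against 290.3, 127 and 131 CPM in KO22 (log2 fold change 5.73 ± 0.12, adjusted p = 3.5e-08), and KO26 was intermediate at 22.3 and 13.6 CPM. Slc14a1, a urea transporter, was at 3.16, 1.31, 1.48 and 2.31 CPM in WT against 40.1, 78.7 and 69.9 CPM in KO22 (log2 fold change 4.83 ± 0.33), and Slc38a1, a glutamine transporter, at 3.88, 2.003, 2.08 and 2.02 CPM in WT against 52.2, 51.1 and 61.8 CPM in KO22 (log2 fold change 4.43 ± 0.21). Slc1a6, a glutamate transporter, was at 23.8, 27.1, 33.5 and 36.6 CPM in WT against 0, 0.436 and 0.234 CPM in KO22 (log2 fold change -6.82 ± 0.36), and Slc40a1, ferroportin, the iron exporter, at 11.6, 9.32, 12.2 and 11.2 CPM in WT against 2.35, 0.436 and 0.624 CPM in KO22 (log2 fold change -3.55 ± 0.40). Potassium channel subunits were called in 20 of 40 cases, 12 higher and 8 lower (7 higher in series 9262 alone). Kcnn4, the calcium-activated channel of lymphocytes and red cells, was at 0.24001, 0.207, 0.593 and 0.578 CPM in WT against 20.6, 23.7 and 22.3 CPM in KO22 (log2 fold change 5.88 ± 0.27, adjusted p = 6.7e-07). Kcnma1, the large-conductance calcium-activated channel, moved against it, at 24.2, 12.9, 13.8 and 12.7 CPM in WT against 0.872, 1.11 and 0.156 CPM in KO22 (log2 fold change -4.37 ± 0.37). Slc39a14, a zinc, iron and manganese importer, was at 61.8, 107, 83.7 and 90 CPM in WT against 531, 310.1 and 264 CPM in KO22 (log2 fold change 2.05 ± 0.26).

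Enzymes of retinoid, steroid and aldehyde metabolism held several of the largest differences. Of 31 aldehyde, alcohol and aldo-keto dehydrogenases and reductases, 4 rose and 9 fell (12.9% and 29.0%, beside 11.4% and 13.8% of all genes tested). Aldh1a1, which makes retinoic acid from retinal, was at 351, 556, 721 and 702 CPM in WT against 1.92, 7.12 and 5.85 CPM in KO22 (log2 fold change -6.84 ± 0.23, adjusted p = 2.7e-07), and its paralog Aldh1a7 at 15.1, 12.4, 12.3 and 11.3 CPM in WT against 0, 0.485 and 0.156 CPM in KO22 (log2 fold change -5.58 ± 0.45). Aldh3a1, an aldehyde dehydrogenase abundant in cornea, was at 1.32, 1.52, 2.67 and 2.39 CPM in WT against 170.2, 105 and 86.5 CPM in KO22 (log2 fold change 5.94 ± 0.30, adjusted p = 9.2e-07). Akr1c18, which inactivates progesterone, was at 0.20001, 0, 0 and 0.434 CPM in WT against 42.5, 8.09 and 14.2 CPM in KO22 (log2 fold change 6.87 ± 0.56), in the same line in which the progesterone receptor was at the floor. A retinoid carrier differed as well: Crabp2, which brings retinoic acid to the nucleus, was at 2.96, 1.24, 0.494 and 0.723 CPM in WT against 65.5, 28.6 and 27.6 CPM in KO22 (log2 fold change 4.796 ± 0.23). Aldh1a1 and Adh1, which act on the way to retinoic acid, and Cyp26b1, which degrades it, were thus lower, and Crabp2 higher. Of 23 cytochrome P450 genes 9 fell and 5 rose (39.1% and 21.7%, median -1.08). Cyp7b1, which hydroxylates oxysterols, was at 0.080003, 0.483, 0.593 and 1.08 CPM in WT against 24.7, 13.96 and 17.9 CPM in KO22 (log2 fold change 5.21 ± 0.49), and Cyp1b1, a glaucoma gene, at 91.7, 204, 259.9 and 241 CPM in WT against 1093, 531 and 444 CPM in KO22. The Cyp1b1 call was lost in series 9262 alone (1.06). Apod, apolipoprotein D, was at 67.7, 173, 289 and 249 CPM in WT against 0.6103, 24.2 and 16.4 CPM in KO22 (log2 fold change -3.998 ± 0.45).

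Of 27 genes of fatty acid synthesis 2 rose and 2 fell (7.4% each way, beside 11.4% and 13.8% of all genes tested). The genes that rose were Elovl4, which makes very long fatty acids and is mutated in a macular dystrophy, at 4.32, 2.42, 1.48 and 1.301 CPM in WT against 40.8, 20.5 and 23.9 CPM in KO22 (log2 fold change 3.51 ± 0.21), and Acsl4, which activates polyunsaturated fatty acids, at 81.6, 96.1, 93.2 and 82.5 CPM in WT against 322, 307 and 296 CPM in KO22 (log2 fold change 1.81 ± 0.11). Of 33 genes of fatty acid oxidation and peroxisomes 7 fell, or 21.2%, and 1 rose (median -0.32), with Acox3 at 21.6, 27.001, 26.7 and 31.4 CPM in WT against 5.06, 8.67 and 9.44 CPM in KO22 (log2 fold change -1.77 ± 0.15). Of 18 pentose phosphate and NADPH enzymes 7 rose and 1 fell (38.9% and 5.6%, median 0.73). Me2, a malic enzyme, was at 24.4, 19.7, 16.6 and 15.9 CPM in WT against 95.2, 71.1 and 71.9 CPM in KO22 (log2 fold change 2.02 ± 0.11), and Tkt, transketolase, at 30.4, 27.001, 26.4 and 26.7 CPM in WT against 115, 70.7 and 82.7 CPM in KO22 (log2 fold change 1.64 ± 0.12).

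Families of nucleotide synthesis, tRNA loading, protein folding and protein breakdown held many higher calls and few lower ones. Of 42 enzymes of purine, pyrimidine and folate synthesis 17 rose (40.5%) and none fell, beside 11.4% and 13.8% of all genes tested (median 1.12). Mthfd2, the mitochondrial folate enzyme, was at 15.8, 4.903, 4.55 and 3.83 CPM in WT against 19.9, 36.8 and 38.2 CPM in KO22 (log2 fold change 2.27 ± 0.44), and KO26 reached 47.4 and 20.1 CPM. Of 23 cytosolic aminoacyl-tRNA synthetases, which load tRNAs, 10 rose (43.5%) and none fell, and 22 had a positive log2 fold change (median 1.15). Aars1, for alanine, was at 93.7, 34.4, 40.9 and 35.6 CPM in WT against 229, 212 and 189.5 CPM in KO22 (log2 fold change 2.11 ± 0.20). Of 49 proteasome subunits 13 rose (26.5%) and none fell, 46 with a positive log2 fold change (median 0.95). The proteasome count hung on the limit on fold change, and ran from 5 under upper-quartile scaling to 23 without the KO22 library of series 8995. Psmd7, a subunit of the regulatory particle, was at 62.6, 35.01, 47.2 and 39.2 CPM in WT against 133, 130.1 and 159 CPM in KO22 (log2 fold change 1.62 ± 0.17). Of 45 chaperonin and heat shock genes 15 rose and 2 fell (33.3% and 4.4%), and under upper-quartile scaling 7 rose. Hspd1, the mitochondrial HSP60, was at 388, 229.8, 272 and 215 CPM in WT against 786, 1021 and 1131 CPM in KO22 (log2 fold change 1.84 ± 0.21). Srm, spermidine synthase, was at 26.6, 9.67, 10.6 and 10.99 CPM in WT against 52.2, 71.8 and 74.97 CPM in KO22 (log2 fold change 2.28 ± 0.30). In these families the WT library of series 8995 was the highest of WT: the summed tRNA synthetases were 2311 CPM there, 1519 to 1722 CPM in the other WT libraries and 3820 to 4010 CPM in KO22. The lines differed less in series 8995 than in series 9262. Summed proteasome subunits were at 3395 CPM in WT and 4370 CPM in KO22 of series 8995. In series 9262 they were at 2514 to 2710 CPM in WT and 5584 and 5746 CPM in KO22. For purine, pyrimidine and folate enzymes the sums in series 8995 were 2121 CPM in WT and 2707 CPM in KO22. In series 9262 these were 1849 to 1940 CPM and 3752 and 3892 CPM.

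Families of the nucleus and the spindle also held more higher than lower calls. Of 32 nuclear pore proteins and lamins 15 rose (46.9%) and none fell, beside 11.4% and 13.8% of all genes tested. A positive log2 fold change was seen for 31 of them (median 1.104). Nup93, a scaffold of the pore, was at 28.4, 27.001, 33.9 and 28.3 CPM in WT against 94.7, 147 and 148 CPM in KO22 (log2 fold change 2.14 ± 0.14), and Ndc1, which anchors the pore in the membrane, at 16.2, 12.3, 13.7 and 13.4 CPM in WT against 57.5, 72.4 and 74.1 CPM in KO22 (log2 fold change 2.28 ± 0.14). Of 49 kinesins and tubulins 24 rose and 5 fell (49.0% and 10.2%, median 1.05). Tubb3, the neuronal beta tubulin, was at 1.2, 1.73, 1.38 and 1.73 CPM in WT against 22.1, 28.9 and 31.3 CPM in KO22 (log2 fold change 4.198 ± 0.16, adjusted p = 3.3e-07), and Kif4, a chromosome motor, at 46.2, 33.7, 36.7 and 29.3 CPM in WT against 173, 237 and 220.2 CPM in KO22 (log2 fold change 2.53 ± 0.17). Of 50 histone genes 17 rose and 6 fell, and without the last KO22 library of series 9262 9 rose. H2az1, a variant of H2A, was at 167, 79.2, 75.7 and 66.8 CPM in WT against 506, 481 and 614 CPM in KO22 (log2 fold change 2.52 ± 0.23), while Macroh2a2, a variant of silent chromatin, was at 27.4, 23.1, 22.05 and 22.6 CPM in WT against 1.74, 5.57 and 4.53 CPM in KO22 (log2 fold change -2.58 ± 0.30). Foxm1, the forkhead factor of mitosis, was at 25.3, 21.6, 19.3 and 23.7 CPM in WT against 45.9, 90.3 and 81.9 CPM in KO22 (log2 fold change 1.67 ± 0.20). KO26 was between WT and KO22 for Nup93 (70.3 and 51.01 CPM) and Kif4 (85.01 and 77.4 CPM).

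Dock10, an exchange factor for small GTPases, was at 0.44001, 2.76, 2.97 and 2.67 CPM in WT against 38.2, 156 and 110.5 CPM in KO22 (log2 fold change 5.73 ± 0.20, adjusted p = 3.1e-07). Lgals3, galectin-3, was at 17.1, 16.99, 15.5 and 16.7 CPM in WT against 300.1, 155 and 158 CPM in KO22 (log2 fold change 3.52 ± 0.17, adjusted p = 8.4e-07). Plaur, the urokinase receptor, was at 8.92, 3.94, 2.97 and 2.75 CPM in WT against 46.03, 28.4 and 28.9 CPM in KO22 (log2 fold change 2.89 ± 0.19). Hypoxia-inducible factor targets were split between the series. Of 24 tested 4 rose and 1 fell (16.7% and 4.2%, beside 11.4% and 13.8% of all genes tested), and without the batch term 7 rose. Their summed level was 2073 to 2484 CPM in WT, 7068 CPM in the KO22 library of series 8995 and 2932 and 2642 CPM in the others. Ero1a, an oxidase of the endoplasmic reticulum, was at 113, 181, 149.6 and 137 CPM in WT against 2413, 402 and 335 CPM in KO22 (log2 fold change 2.12 ± 0.53). Of 373 Zfp zinc finger genes 42 fell (11.3%) and 10 rose (2.7%), beside 13.8% and 11.4% of all genes tested (median -0.34). Among other transcription factors, Klf5 was at 12.2, 9.39, 8.11 and 7.88 CPM in WT against 39.1, 27.04 and 37.5 CPM in KO22 (log2 fold change 1.85 ± 0.16) and Sox11 at 84.8, 35.7, 34.9 and 33.04 CPM in WT against 6.103, 10.95 and 10.9 CPM in KO22 (log2 fold change -2.23 ± 0.35), and of 22 forkhead and 8 T-box genes 1 and 0 rose and 2 and 2 fell.

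The Hox genes of body-axis patterning were described after their values were seen. All 16 Hox genes tested fell, beside 13.8% of all genes tested, with log2 fold changes from -4.69 to -2.18. Single genes were weakly expressed, with WT means from 0.98 CPM (Hoxb2) to 16.9 CPM (Hoxa7). Their summed level was 67.4 to 79.1 CPM in WT and 0.523, 8.43 and 5.93 CPM in KO22, against 66.2 and 69.5 CPM in KO26. The 6 non-coding genes of the Hox clusters tested fell too.

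Genes of the Y chromosome differed between the lines. Of 8 tested, 6 fell, beside 13.8% of all genes tested. Among them were the widely expressed Kdm5d, a histone demethylase, at 62.5, 62.5, 57.3 and 61.3 CPM in WT against 0.872, 8.72 and 7.88 CPM in KO22 (log2 fold change -3.45 ± 0.44, adjusted p = 1.6e-04), and Eif2s3y, a translation initiation factor subunit, at 55.4, 53.7, 47.3 and 48.7 CPM in WT against 0.174, 5.04 and 4.06 CPM in KO22 (log2 fold change -4.05 ± 0.50). In the KO22 library of series 8995 these genes were below 1 CPM, and in the KO22 libraries of series 9262 between 4.06 and 8.72 CPM, with Uty included. KO26 kept 21.1 to 59.2 CPM of Kdm5d, Eif2s3y, Uty and Ddx3y. Xist, the RNA of the inactive X, was low in both lines, at 1.56, 0.7596, 1.48 and 1.01 CPM in WT against 0.174, 0.582 and 0.312 CPM in KO22, and was called lower (log2 fold change -1.62 ± 0.49, adjusted p = 0.019). The Xist call was lost in series 9262 alone (-1.14) and without any of 4 single libraries (-1.58 to -1.13). The 2 Y genes that were not called were Mid1-ps1 and Erdr1y.

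The level left in KO22 varied among genes that fell. Of the genes called lower, 53 had 10 CPM or more in WT and 3 counts or fewer in the KO22 library of series 8995. Their level left in the KO22 libraries of series 9262, as a share of WT of that series, ran from 0.171% to 29.8%, with a median of 2.65% and quartiles of 1.1985% and 7.37%, and 10 genes were under 1%. Fmod, fibromodulin, had 0.171% left, Gas6, the ligand of Mertk, 1.43%, Hoxa7 7.87% and Eif2s3y 9.12%. The 53 genes were picked for their low counts in the library of series 8995, so a higher level in series 9262 partly follows from that choice and is a description. These 4 genes were chosen after their values were seen.

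The chromosomes described next were chosen after their values were seen. Chromosome 8 held 1089 tested genes, of which 20.6% were higher and 5.7% lower, beside 11.4% and 13.8% of all genes tested. Its share of all counts was 2.85%, 3.14%, 3.04% and 3.22% in WT and 4.79%, 4.48% and 4.40% in KO22. Chromosome 10 held 968 tested genes, 6.8% higher and 24.0% lower, with a count share of 4.21%, 4.33%, 4.10% and 4.33% in WT and 3.13%, 3.20% and 3.05% in KO22. For both chromosomes the 2 lines did not overlap in count share, in either series. Most other chromosomes did not overlap either, among them 2, 4, 9, 14 and 19. Shares are of all counts, so each depends on the others. Mitochondrially encoded genes took a mean of 19.9% of counts in WT and 14.9% in KO22. Chromosome 15 leaned as chromosome 8 did, with 18.2% higher and 9.8% lower of 748 tested, and chromosome 12 as chromosome 10, with 5.0% higher and 22.8% lower of 776. Chromosomes 6 and 19 also leaned as chromosome 10 did, with 8.6% and 6.3% higher and 22.4% and 21.2% lower. In series 9262 alone the medians were 0.52 for chromosome 8, 0.38 for chromosome 15, -0.52 for chromosome 10 and -0.56 for chromosome 12. Copy number was not measured in these libraries.

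**Figure D4:**
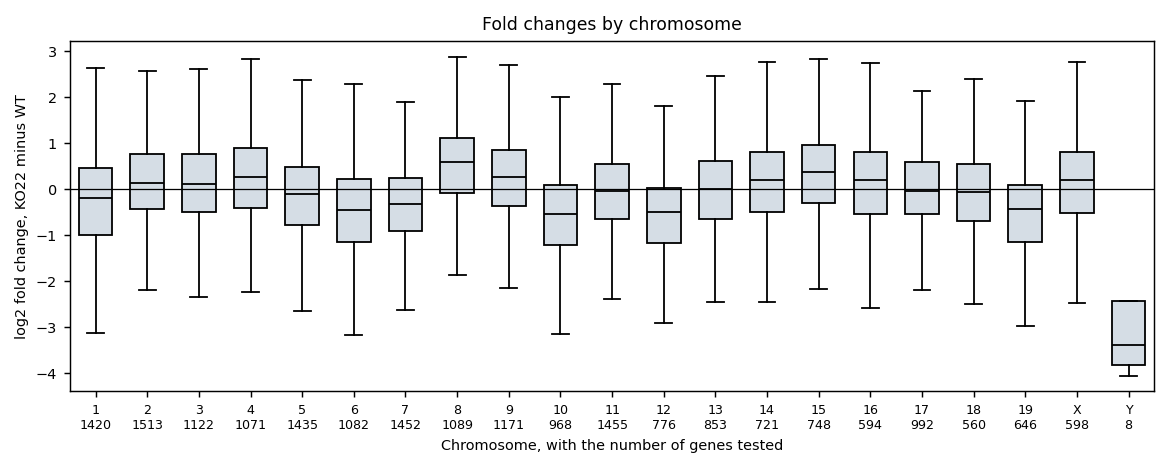
Log2 fold changes (KO22 minus WT) of all genes tested on each chromosome, with the median as a line, the quartiles as a box and whiskers to 1.5 times the quartile range, outlying genes not drawn, and the number of genes tested under each name. Chromosome 8 lies highest of the autosomes and chromosome 10 lowest, and the 8 genes of Y lie far below.

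Some neighbouring genes were called together. Over 12520 protein-coding genes at 1 CPM or more in either line, of which 13.5% were higher and 11.2% lower, 13 runs of at least 5 neighbours called in 1 direction held 87 genes, 8 runs higher and 5 lower. The run on chr6:13832250-17943024, from Gpr85 to St7, held 9 genes, all 9 protein-coding genes listed there, and all rose. It holds Cav1, the main protein of caveolae (371 ± 75.3 CPM in WT and 1804 ± 348 CPM in KO22, log2 fold change 2.24 ± 0.12), and Cav2 (log2 fold change 2.63 ± 0.13). It also holds Met, the receptor of hepatocyte growth factor (96.8 ± 6.21 CPM in WT and 405 ± 25.9 CPM in KO22, log2 fold change 2.07 ± 0.11), Tes, a focal adhesion protein (15.03 ± 3.67 CPM in WT and 205 ± 19.2 CPM in KO22, log2 fold change 3.75 ± 0.14), and Capza2, given above. The run with the most genes, on chr9:108765701-109723540, held 11 genes from Uqcrc1 to Cdc25a, with log2 fold changes from 1.202 to 3.096. It holds Plxnb1, given above, and Col7a1, the collagen of anchoring fibrils (5.399 ± 1.42 CPM in WT and 18.9 ± 2.095 CPM in KO22, log2 fold change 1.79 ± 0.21).

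Of the other runs higher, 3 lay on chromosome 8. The run on chr8:57935731-61361705 held 5 genes, among them Hmgb2, a chromatin protein (31.1 ± 3.202 CPM in WT and 238 ± 55.9 CPM in KO22, log2 fold change 2.93 ± 0.17). The run on chr8:94898819-95253900 held the metallothionein genes Mt2 and Mt1, Nup93, Herpud1 and Nlrc5, the activator of class I genes (26.4 ± 15.95 CPM in WT and 101 ± 34.5 CPM in KO22, log2 fold change 2.399 ± 0.37). The Mt1 call was lost in series 9262 alone (0.75). A run on chr9:102865911-103243039 held Slco2a1 and Topbp1, a DNA damage checkpoint protein (72.3 ± 15.8 CPM in WT and 425 ± 117 CPM in KO22, log2 fold change 2.55 ± 0.23). A run on chr1:173178445-173525961 held Aim2, a sensor of cytosolic DNA (0.7901 ± 0.147 CPM in WT and 13.4 ± 2.63 CPM in KO22, log2 fold change 4.103 ± 0.25), with 4 related Ifi200 family genes, whose sequences are similar enough to make their counts uncertain.

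Runs lower were mostly gene clusters of 1 family. The run on chr6:51831208-52217834 held Skap2 and 9 Hoxa genes, and that on chr11:96177449-96238756 5 Hoxb genes. The run on chr12:103498521-104380597 held Ppp4r4 and 6 Serpina3 genes, among them Serpina3n, a secreted protease inhibitor (369.8 ± 179 CPM in WT and 51.03 ± 21.2 CPM in KO22, log2 fold change -2.72 ± 0.53). The run on chr18:37610867-37657532 held Pcdhb16 to Pcdhb22. The run on chr1:84970411-85478298 held Sp140l2, Sp140l1 and 4 predicted genes. The genes of these runs were named after their values were seen.

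**Figure D5:**
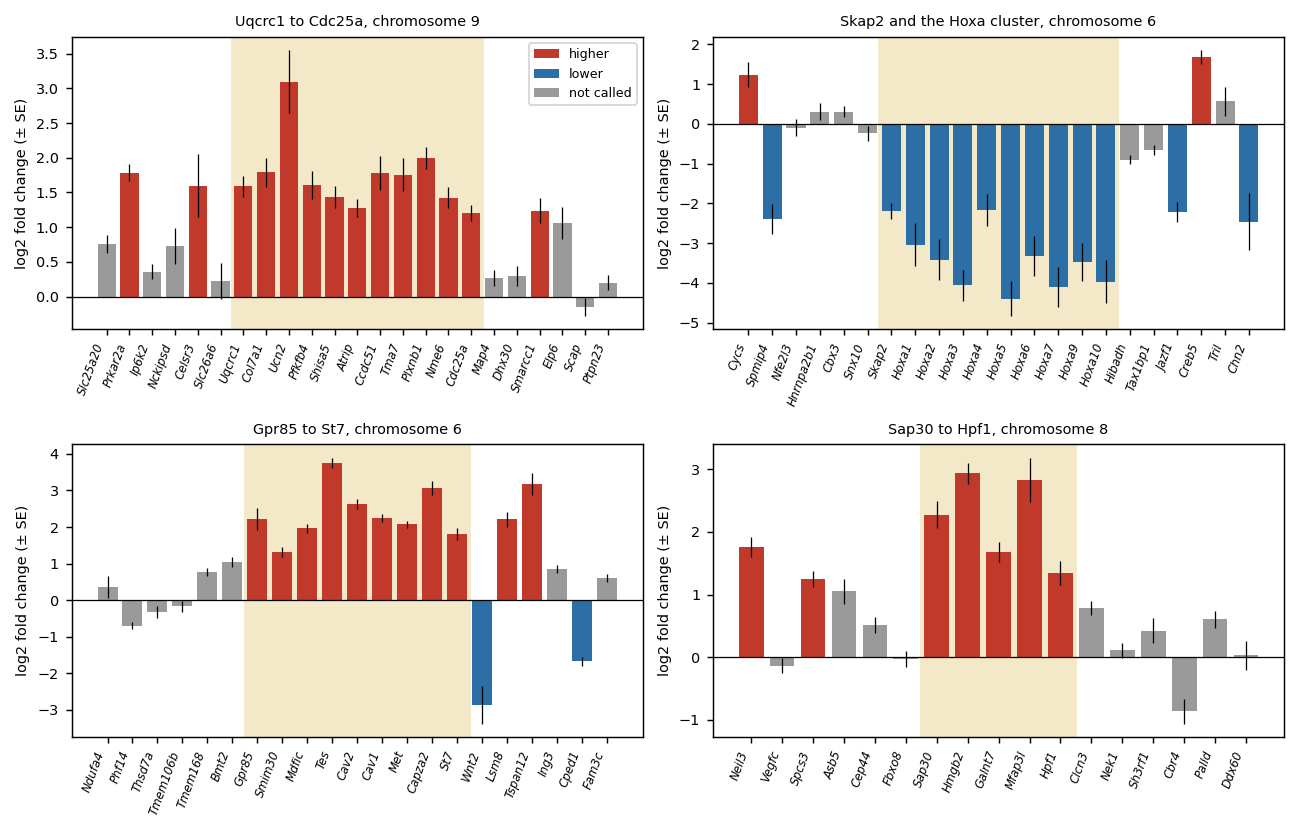
Log2 fold change (KO22 minus WT, bars, ± SE) of neighbouring protein-coding genes in 4 of the 13 runs, in genome order, with the run shaded and the genes on either side outside the shading, red for called higher, blue lower and grey neither. In the chromosome 9 run 11 neighbours rose, in the Hoxa run 10 fell, in the Gpr85 to St7 run 9 rose and in the Sap30 to Hpf1 run 5 rose.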

How the data were processed

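Bulk RNA-seq of cultured mRPE cells was analysed from raw counts per gene. Per the labels and the study's methods, the authors trimmed reads with Trim Galore 0.6.7, aligned them to mm39 with STAR and deposited STAR's counts per gene for each library. The labels name an NEB kit and the methods a TruSeq kit, both stranded. The cell lines and library series come from the labels. Gene positions and types were taken from GENCODE release M39 for 20737 of 20910 genes by Ensembl ID, and the guide was searched on both strands of GRCm39 with up to 3 mismatches and an NGG PAM. Counts were fitted with edgeR 4.0.16 (R 4.3.3): TMM scaling, genes reaching 5 counts in 3 or more libraries, library series and line as terms, Benjamini-Hochberg adjustment. DESeq2 1.42.0 was an alternative. Total counts of 10187978 to 27537863 set the precision. Scripts were tested on simulated counts. No 2 libraries agreed within sampling noise (chi-square per degree of freedom, 5.20 or more). Genes named were, per list, up to 3 called higher and 3 lower with the largest fold change at a mean of 5 CPM or more (else the 2 most abundant), the 10 most abundant called in each direction outside those the study discusses, the 8 highest at 3 counts or fewer in the other line, the 4 most abundant non-coding genes in each direction, genes within 1 Mb of Prom1, Xist and Y genes, and markers. Some of these are not reported here. Members and lists were chosen with earlier results of these data known. Alternatives were other scalings, count filters and tests, no batch term, series 9262 alone, a fit with KO26, no limit on fold change, and leaving out each library.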

Additional observations from a re-analysis of the deposited data

Results flagged for a closer look

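Of 144 called genes named above with a mean of at least 1 CPM in WT, 21 had 1 WT library far from the other 3, by Dixon's test on log2(CPM + 0.5), where chance gives about 1 in 20. In 18 of them it was the WT library of series 8995, the only WT library of that series, so library and series cannot be told apart.

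That library stood above the other WT libraries for Acta2, at 1664 CPM against 593.5 to 646.6 CPM, for Kdr, at 236 CPM against 152.3 to 162.9 CPM, for Topbp1, at 95.9 CPM against 62.7 to 65.6 CPM, for Sox11, at 84.8 CPM against 33.0 to 35.7 CPM, and for Pgr, at 78.1 CPM against 36.6 to 41.2 CPM. It also stood above them for Epha4 at 48.1 CPM, Tkt at 30.4 CPM, Srm at 26.6 CPM, Kcnma1 at 24.2 CPM, Mthfd2 at 15.8 CPM and Slc38a1 at 3.88 CPM.

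It stood below the other WT libraries for Adamts9, at 86.1 CPM against 256.8 to 302.7 CPM, for Pamr1, at 17.2 CPM against 43.4 to 51.9 CPM, for Megf6, at 12.8 CPM against 29.6 to 34.8 CPM, and for Dock10, at 0.44 CPM against 2.67 to 2.97 CPM. The same was seen for Ppp4r4 at 5.16 CPM, Mitf at 3.04 CPM and Sp140l1 at 1.56 CPM. Among these, the call of Mitf was lost without that library.

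In series 9262, F3 was at 218.6 CPM in 1 WT library against 175.6 to 177.9 CPM in the other WT libraries, Sema3c at 15.3 CPM against 11.1 to 11.6 CPM, and Ccn2 at 115.7 CPM against 170.6 to 177 CPM. Groups of 3, and so the KO22 libraries, were not tested in this way.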

How the results depend on the processing

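Leaving out 1 library at a time gave 1791 to 2654 genes higher and 2490 to 3079 lower, and without a limit on the fold change 5506 were higher and 5331 lower. Both counts stayed within 1.5 times their value under the other alternatives, with DESeq2's Wald test at 2272 and 2699 and upper-quartile scaling at 1873 and 3449. Without either KO22 library of series 9262, 39.9% and 40.7% of calls were higher, against 45.4%. No log2 fold change of a named gene turned its direction past the threshold. Upper-quartile scaling turned the sign of the median of the laminin, potassium channel, polyamine, metallothionein and endothelial marker lists, for which no direction is given. In series 9262 alone 11 named genes lost their call, among them Mitf, Cyp1b1 and Mt1. No paired analysis was possible because the labels give the libraries no replicate numbers that the lines share. Depth limits genes at 3 counts or fewer, whose fold changes are lower bounds that cover counting error only.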
